A study of Mus musculus with 3 samples.

Results

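The replication-dependent histone genes described here are the 67 genes whose symbol starts with Hist1h, Hist2h, Hist3h or Hist4h and that have at least 1 protein-coding transcript in the annotation, out of 55536 annotated genes and 22028 protein-coding genes. Another 3 genes with such symbols had no coding transcript and were left out. Of the 67, 6 encode the linker histone H1, 18 encode H2A, 18 encode H2B, 12 encode H3 and 13 encode H4. RNA was measured by total RNA-seq, after depletion of ribosomal RNA, in the chromatin fraction of bone-marrow-derived macrophages from C57BL/6J mice that had been stimulated for 60 minutes with Lipid A at 100 ng/ml. Lipid A anchors lipopolysaccharide in the outer membrane of Gram-negative bacteria and is sensed through Toll-like receptor 4. The series held 1 group of 3 libraries, with 1000, 250 and 500 ng of starting RNA in replicates 1, 2 and 3, and no unstimulated sample was analysed here. All 3 libraries carried the same donor entry, and the labels call them biological replicates but do not say whether they came from separate animals, so the spread between them may be technical; age and sex were not recorded.

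Histones H2A, H2B, H3 and H4 form the core around which DNA is wrapped, and H1 binds the linker DNA between these cores. Most of these histone proteins are made during S phase, when the genes described here are transcribed in clusters. Their mRNAs are unusual in that they normally have no introns and no poly(A) tail: the 3′ end is formed by a cut just after a short stem-loop, which is bound by the stem-loop binding protein SLBP and cut with the help of the U7 small nuclear RNP. Macrophages grown from bone marrow divide in culture in response to macrophage colony-stimulating factor.

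The genes lie in 4 clusters of the mm10 assembly. The Hist1 cluster on chromosome 13, between 21715763 and 23934851, holds 54 of them, and the Hist2 cluster on chromosome 3, between 96219865 and 96270132, holds 10. The Hist3 cluster on chromosome 11 holds 2, and Hist4h4 stands alone on chromosome 6. A single transcript was annotated for 62 genes, and 62 had 1 exon.

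The stem-loop is a sequence that many of these genes share, and among genes with a match the base pairs of its stem separated H4 genes from the others. It was searched after the stop codon of each annotated transcript as 16 bases that start with GG, form a stem of 6 base pairs and close a loop of 4 bases starting with TT. A match was found in 44 of 67 genes. In the 80 bases after the stop codon, read in transcripts with at least that many, 34 of 40 histone genes (85%) held it on the strand of the gene and 0 on the opposite strand. Among 20201 other protein-coding genes, 7 (0.0347%) held it on the strand of the gene and 3 on the opposite strand. Of the 23 without a match, 13 had an annotation that ended with the coding sequence, and 15, those 13 included, had under 30 bases after the stop codon, so no match in them says only that these letters are not in the annotated transcript. The rest had longer annotated ends without a match, among them Hist2h2be with 2192 and Hist1h2bc with 742 bases after the stop codon. The 8 sequences below show each stem-loop form, written 5′ to 3′ on the strand of the gene as DNA letters, with the stem-loop in capitals and flanking bases in lower case.
Hist1h4m (H4, chr13:21812129-21812144, plus strand): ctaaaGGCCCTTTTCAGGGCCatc
Hist4h4 (H4, chr6:136803998-136804013, minus strand): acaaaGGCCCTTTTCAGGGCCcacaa
Hist1h4i (H4, chr13:22040966-22040981, minus strand): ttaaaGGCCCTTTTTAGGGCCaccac
Hist1h4b (H4, chr13:23757366-23757381, plus strand): caaaaGGTCCTTTTCAGGACCactca
Hist2h2aa2 (H2A, chr3:96239784-96239799, minus strand): aaaaaGGCTCTTTTCAGAGCCaccca
Hist2h2ac (H2A, chr3:96220418-96220433, minus strand): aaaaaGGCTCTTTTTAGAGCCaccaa
Hist1h1c (H1, chr13:23739512-23739527, plus strand): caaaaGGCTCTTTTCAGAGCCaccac
Hist1h1t (H1, chr13:23696525-23696540, plus strand): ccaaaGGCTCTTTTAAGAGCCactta

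The form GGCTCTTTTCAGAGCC was shared by 26 genes, namely 3 of H1, 10 of H2A, 8 of H2B and 5 of H3. The form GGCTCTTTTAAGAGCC was found in 6 genes of H1, H2B and H3, and Hist2h2ac alone had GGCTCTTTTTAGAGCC. All 11 H4 genes with a match had another stem, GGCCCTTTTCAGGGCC in 7, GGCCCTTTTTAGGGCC in 2 and GGTCCTTTTCAGGACC in 2, and none of these forms was found in a gene of another class. In Hist1h4m the annotated transcript ends 3 bases after the stem-loop, where in Hist1h1c it runs on for 840 bases and in Hist4h4 for 2445 bases. The annotation thus mixes transcripts that stop near the stem-loop with transcripts that extend far past it. Counts are also given by annotated form below, and whether the form affects them was not tested.

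RNA of these genes made up a small share of the counts in the chromatin fraction. Values come from 2 programs per library, kallisto, which estimates counts per transcript, and RSEM, which gives expected counts per gene. TPM is the count divided by the effective length of the transcript and scaled to the same total in each library. Each program has its own effective lengths: for Hist1h4m, 209 to 213 bases with kallisto and 158 to 201 with RSEM. The TPM scales of the 2 programs are not identical, and the reasons were not tested. TPM was used as deposited, so genes that are not protein-coding and rows naming no gene also count in its total. With RSEM all protein-coding genes summed to 189672 to 239176 TPM per library. Gene counts were 21055097, 27428699 and 27362420 with kallisto and 13318395, 15352661 and 15812581 with RSEM in replicates 1, 2 and 3. The 67 genes held 1016, 1343 and 958.2 kallisto counts, which is 0.00441% ± 0.000786 of gene counts (SD, n = 3). With RSEM they held 401.1, 605.4 and 431.6 counts, or 0.00323% ± 0.000635. Their summed TPM was 62.7, 72.7 and 48.8 with kallisto and 44.7, 76.3 and 53.6 with RSEM. In RNA from many cells, fewer cells in S phase and less RNA per cell cannot be told apart.

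Few of the genes were detected throughout. Taking a TPM of 1 or more in each of the 3 libraries as detection, kallisto detected 14 of 67 (20.9%) and RSEM 11 (16.4%), with 10 detected by both. Of all protein-coding genes, 49.8% passed this limit with kallisto and 35.7% with RSEM, so the share was lower among histone genes with either program. With RSEM, 31 genes reached a TPM of 1 in at least 1 library, 41 had a mean count under 5, and 9 had at least 10 counts in every library. No count was given in any library to 8 genes by RSEM and to 4 genes by kallisto. Hist1h2aa, Hist1h2ba, Hist1h2bp and Hist2h3c1 had none by either. Hist2h3c1 has the same coding sequence as Hist2h3c2, and Gm20634 overlaps 1825 bases of Hist2h3c1 on the same strand. How reads were divided between these genes was not tested, so the count of 0 for Hist2h3c1 does not show that it had no RNA. A count of 0 allows up to 3 counts, which is 2.25e-05%, 1.95e-05% and 1.9e-05% of RSEM gene counts in replicates 1, 2 and 3, and this covers counting error only.

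**Figure D1:**
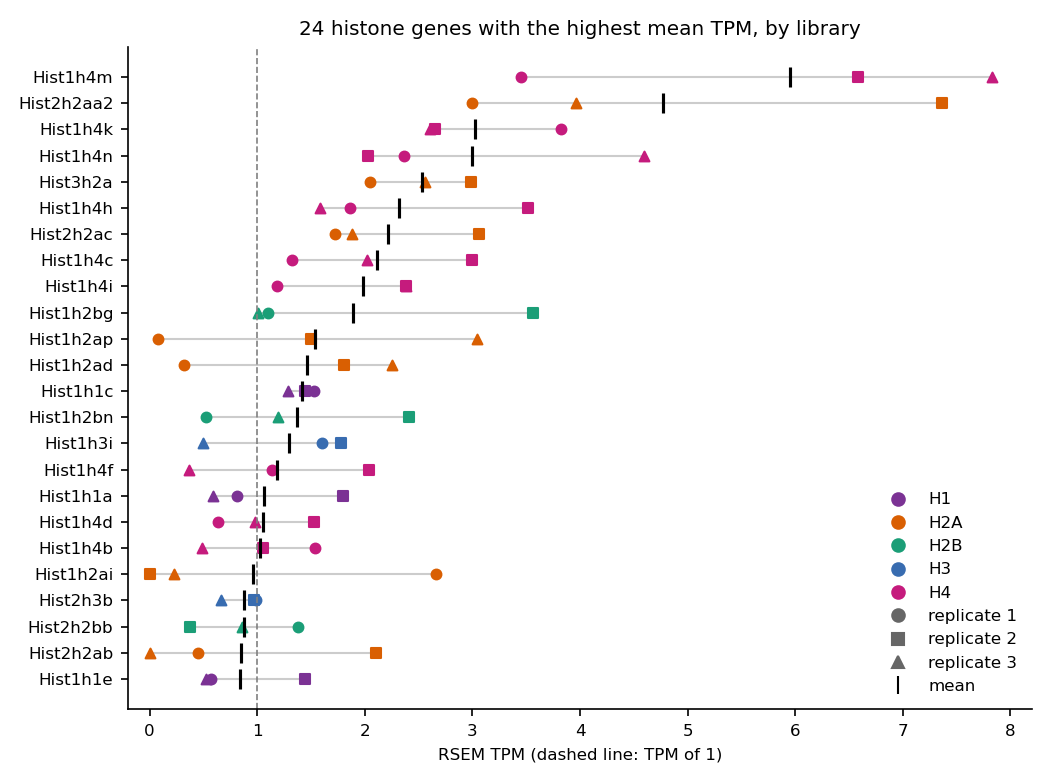
RSEM TPM (x axis) of the 24 histone genes with the highest mean (rows), with 1 symbol per library, coloured by class, a black bar at the mean and a dashed line at a TPM of 1. Hist1h4m leads with 3.45 to 7.83 TPM, 5 of the 9 genes with the highest means besides it are H4 genes, and many rows are as wide as the distance to the next gene.

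H4 genes, which encode the most conserved core histone, made up 5 of the 10 genes with the highest mean TPM with kallisto and 6 of 10 with RSEM. They were 9 of the 22 genes with a mean TPM of at least 1 with kallisto and 9 of 19 with RSEM. Hist1h4m (chromosome 13, 21811746 to 21812147) had 4.38, 3.24 and 4.31 TPM with kallisto and 3.45, 6.58 and 7.83 TPM with RSEM in replicates 1, 2 and 3. These levels rest on 12.8, 17.7 and 22.3 RSEM counts, since the effective length of its 402-base transcript was 158 to 201 bases and 1 count was worth 0.331 TPM on average. Hist1h4k, whose annotation holds the coding sequence alone, had 4.41, 2.47 and 1.23 TPM with kallisto and 3.82, 2.65 and 2.61 TPM with RSEM, from at most 8.24 RSEM counts. Hist1h4n had 2.46, 3.97 and 2.61 TPM with kallisto and 2.36, 2.03 and 4.59 TPM with RSEM. No library was highest for all of these H4 genes, and their ranges overlapped.

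Other H4 genes followed closely. Hist1h4h had 3.11, 2.54 and 1.13 TPM with kallisto and 1.86, 3.52 and 1.58 TPM with RSEM. Hist1h4c had 1.32, 2.41 and 1.27 TPM with kallisto and 1.32, 3.00 and 2.02 TPM with RSEM. Hist1h4i had 1.5, 2.58 and 2.53 TPM with kallisto and 1.18, 2.38 and 2.38 TPM with RSEM. These ranges overlapped too, so 3 libraries do not resolve the order of these H4 genes.

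H2A genes, which encode the partner of H2B in the core, stood among them, with Hist2h2ac next after Hist1h4m by mean TPM with kallisto and Hist2h2aa2 next after it with RSEM. Hist2h2aa2 (chromosome 3, 96239749 to 96240276) had 1.97, 3.06 and 2.88 TPM with kallisto and 3.00, 7.36 and 3.96 TPM with RSEM. Hist2h2ac had 2.79, 5.0 and 2.40 TPM with kallisto and 1.72, 3.06 and 1.88 TPM with RSEM, with replicate 2 highest by both. Hist3h2a (chromosome 11, 58954685 to 58956830) had 2.13, 2.81 and 2.22 TPM with kallisto and 2.05, 2.99 and 2.56 TPM with RSEM.

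By counts Hist3h2a was the leading gene with RSEM, at 83.0, 132.2 and 105.3 kallisto counts and 73.0, 96.3 and 83.3 RSEM counts, or 17.6% of all RSEM histone counts. Its annotated transcript is 2146 bases long and lies wholly within the span of Trim17 on the same strand. Trim17, a ubiquitin ligase gene, had 76.0, 192 and 137.7 kallisto counts and 47.0, 124.7 and 87.7 RSEM counts, and how reads were divided between the genes was not tested. Hist1h2ap had 0.922, 0.724 and 1.19 TPM with kallisto but 0.08, 1.5 and 3.04 TPM with RSEM, and Hist1h2ad had 1.10, 2.38 and 1.48 TPM with kallisto and 0.32, 1.81 and 2.25 TPM with RSEM. By TPM both genes thus varied more between libraries with RSEM than with kallisto. By counts the SD was 1.73 with kallisto and 6.11 with RSEM for Hist1h2ap, but 6.73 and 5.47 for Hist1h2ad. Hist1h2ap has the same coding sequence as Hist1h2ao, and how reads were divided between them was not tested.

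In the other classes the leading genes were lower with RSEM, while with kallisto the H2B gene Hist2h2be, described further on, averaged 3.17 TPM ± 2.34. Hist1h2bg led the H2B genes by RSEM, with 1.92, 3.44 and 1.66 TPM with kallisto and 1.10, 3.56 and 1.01 TPM with RSEM. Hist1h1c led the H1 genes, with 1.5, 1.16 and 0.999 TPM with kallisto and 1.53, 1.44 and 1.29 TPM with RSEM. It rests on more reads than most, 41.0, 38.0 and 33.0 kallisto counts and 38.0, 32.0 and 29.0 RSEM counts, and its libraries lay close together. Hist1h1e came next by RSEM counts, with 20.5, 47.0 and 20.0 kallisto counts and 18, 41 and 15 RSEM counts, and its transcript overlaps Hist1h2be on the same strand. Hist1h3i led the H3 genes, with 1.73, 1.91 and 0.574 TPM with kallisto and 1.60, 1.78 and 0.50 TPM with RSEM.

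Per unit of length the H4 class held the largest share, and by counts the order depended on the program. H4 genes took 35.2% ± 1.81 of the summed histone TPM with kallisto and 40.6% ± 5.54 with RSEM (SD, n = 3), and were the highest class in 3 of 3 libraries with both. H2A genes took 27.3% ± 5.25 with kallisto and 29.1% ± 4.54 with RSEM. H2B genes took 23.1% ± 3.78 with kallisto and 14.2% ± 2.68 with RSEM, a difference larger than the spread of either. H3 genes took 7.32% ± 1.18 with kallisto and 9.29% ± 2.14 with RSEM, and H1 genes took 7.11% ± 1.04 with kallisto and 6.82% ± 1.34 with RSEM, so H3 and H1 lay within their spread with kallisto, while H3 was above H1 in 3 of 3 libraries with RSEM.

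By counts, which do not correct for length, H2B genes took 32.9% ± 8.45 with kallisto but 13.0% ± 1.81 with RSEM, and H2A genes took 19.3% ± 3.43 with kallisto but 33.3% ± 2.66 with RSEM. H1 genes took 19.3% ± 3.50 of kallisto counts and 18.1% ± 2.62 of RSEM counts, well above their share of TPM on either program. H4 genes took 23.9% ± 2.24 of kallisto counts and 27.0% ± 3.26 of RSEM counts. With counts per kilobase of annotated transcript, a scale added after the values were seen, H4 genes held 36.7% and H2A genes 30.6% of RSEM values.

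**Figure D2:**
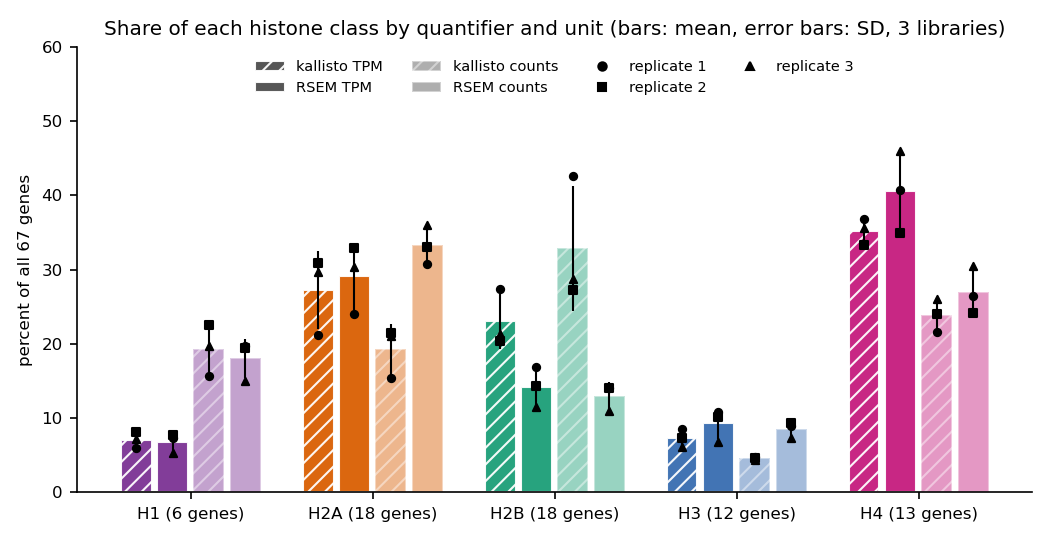
Percent of the summed value of all 67 histone genes (y axis) held by each class (x axis), with bars for the mean, error bars for the SD and symbols for the 3 libraries; hatched bars are kallisto, plain bars RSEM, dark bars TPM and pale bars counts. H4 is the tallest class by TPM with both programs, while the H2B bar by counts is 32.9% with kallisto and 13.0% with RSEM.

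By TPM over all 67 genes the median H4 gene was higher than the median gene of another class. The median log2(TPM + 1) over the 13 H4 genes was 1.27 ± 0.22 with kallisto and 1.24 ± 0.32 with RSEM. The medians of the other classes lay between 0.32 for H3 and 0.80 for H1 with kallisto, and between 0.37 for H2B and 0.71 for H1 with RSEM. The order turned on other scales: on log2(CPM + 1), which does not correct for length, the RSEM median was 0.67 for H4 and 0.85 for H1, and over genes with a mean TPM of at least 1 it was 1.57 for H4 and 1.76 for H2A. In detection by TPM in all libraries H4 led: kallisto detected 7 H4, 4 H2A, 3 H2B, 0 H1 and 0 H3 genes. RSEM detected 6 H4, 3 H2A, 1 H2B, 1 H1 and 0 H3 genes. This limit favours short transcripts, since 1 RSEM count was worth 0.331 TPM in Hist1h4m but 0.00802 TPM in Hist1h1d. A limit of 10 RSEM counts in every library, which does not correct for length, was met by 9 genes. They were Hist1h1c, Hist1h1d and Hist1h1e of H1, Hist1h4c, Hist1h4d, Hist1h4i and Hist1h4m of H4, and Hist2h2aa2 and Hist3h2a of H2A.

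Many of the genes have near copies, so the split of reads between them is uncertain. The median gene shared 87.4% of the 31-base words of its coding sequence with another gene, where the H1 genes, which differ most among themselves, shared 16.6%. Words were matched on either strand and in any annotated gene, so these values also include genes that overlap at the same place. Hist3h2a, within the span of Trim17, shared 100% of its coding words with any gene but 19.2% with the other histone genes described here. An identical coding sequence linked 10 genes into 5 pairs. Within the pair Hist1h4m and Hist1h4n the summed counts were 30.5, 39.5 and 36.9 with kallisto and 22.6, 24 and 37.5 with RSEM. Within the pair Hist2h2aa1 and Hist2h2aa2 they were 13.0, 26.3 and 22.8 with kallisto and 17.9, 38.8 and 25.3 with RSEM. Kallisto gave Hist2h2aa1 at most 1.90 of these counts in any library and RSEM at most 5.83, so both programs placed most of the pair's counts on Hist2h2aa2. Gm20634 overlaps 529 bases of Hist2h2aa1 on the same strand, and its part in this split was not tested.

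Reads from the other strand were a further source of doubt, because the sources used here do not give the strand setting. Antisense genes overlapped 6 histone genes, among them Hist2h2aa1 and Hist2h2aa2, and held 148.8, 226.2 and 159.7 kallisto counts and 77.3, 79.8 and 70.1 RSEM counts. MicroRNA genes overlapped 17 H2A genes on the opposite strand, but held at most 1.26 kallisto counts and 3.72 RSEM counts per library in all. Their part in the histone values was not tested.

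The programs disagreed most about a few genes, most of them with long annotated transcripts. Kallisto gave the 67 genes 2.53, 2.22 and 2.22 times as many counts as RSEM in replicates 1, 2 and 3, beside 1.58, 1.79 and 1.73 times over all genes. Grouped by annotated form, the ratio was 4.84 ± 1.11 for the 5 spliced genes, 2.69 ± 0.39 for the 18 extended genes with at least 300 bases after the stop codon, 1.77 ± 0.65 for the 13 genes with the coding sequence alone, and 1.40 ± 0.16 for the 31 short genes, with fewer bases there (SD, n = 3). The ratio of the extended genes lay above that of the short genes in 3 of 3 libraries, but it rested on 4 of them: without Hist2h2be, Hist1h1d, Hist4h4 and Hist1h2bh, chosen after the values were seen, it was 1.27 ± 0.07. By gene, the mean kallisto count was over 2 times the mean RSEM count in 4 of 5 spliced, 4 of 18 extended, 3 of 13 coding-only and 10 of 31 short genes.

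A few genes made up most of this excess. Hist2h2be, an H2B gene with a 2620-base transcript, had 285.1, 109.0 and 105.1 kallisto counts but 5, 10 and 8 RSEM counts, and replicate 1 stood far above the others with kallisto only. Hist1h1d, an H1 gene with a 7425-base transcript, had 85.3, 184.6 and 117.8 kallisto counts but 12, 21 and 13 RSEM counts. Hist4h4, which shares 0.717% of its coding words and 21.2% of its noncoding words with other genes, had 85.4, 119.8 and 99.7 kallisto counts but 7, 9 and 9 RSEM counts. For all 3 genes the lowest kallisto library lay above the highest RSEM library, and together they held 58.4% of the net excess over the 67 genes.

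Hist1h2bq showed the same in a spliced gene. It had 40.5, 75.3 and 65.4 kallisto counts but 5.89, 6.86 and 4.13 RSEM counts. Kallisto placed 92.1% of its TPM on a 2015-base transcript annotated as subject to nonsense-mediated decay, a pathway that degrades mRNAs with early stop codons, and RSEM placed 21.3% there. Hist1h2bq was the only one of the 5 genes with several transcripts that reached a mean TPM of 1, and did so with kallisto only. Hist2h2be averaged 166.4 and Hist1h2bq 60.4 of the mean of 358.1 kallisto counts held by the 18 H2B genes.

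**Figure D3:**
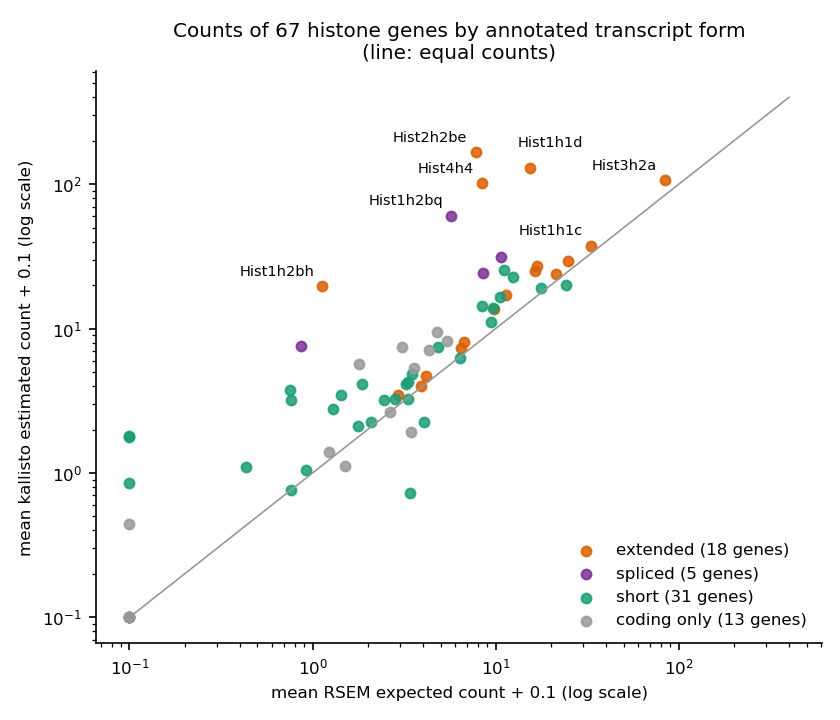
Mean kallisto estimated count (y axis) against mean RSEM expected count (x axis) of the 67 histone genes, both plus 0.1 on log scales, coloured by annotated form, with a line of equal counts. Most short genes lie near the line, and Hist2h2be, Hist1h1d, Hist4h4, Hist1h2bq and Hist1h2bh lie far above it.

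By TPM, for which each program used its own effective lengths, the median histone gene tested differed little between the programs. Of all genes with a mean TPM of at least 1 over both programs, 18082 were tested with limma on log2(kallisto TPM + 1) minus log2(RSEM TPM + 1), and 19 of them were histone genes; p-values were adjusted by the Benjamini-Hochberg method over all 18082. Kallisto was higher for 2 of the 19, against 78.1% of all genes tested, and lower for 1, against 1.07%. The median difference was −0.04 over the histone genes and 0.96 over all genes tested. It was 0.22 over 154 other coding genes with 1 exon and 0.72 over 10652 coding genes with 2 or more exons. The filter on mean TPM left out Hist4h4, Hist1h1d, Hist1h2bq and Hist1h2bh, whose kallisto counts lay far above their RSEM counts. Hist4h4 averaged 1.67 TPM with kallisto and 0.18 TPM with RSEM.

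Hist2h2be had the largest difference. Its TPM was 5.87, 1.86 and 1.78 with kallisto and 0.11, 0.25 and 0.20 with RSEM, a difference of 1.68 on the log2 scale (SE 0.32, limma adjusted p = 0.00508) and of 1.21 (SE 0.12) without replicate 1. Hist2h2ac differed by 0.43 (SE 0.12, limma adjusted p = 0.0203) and was higher with kallisto in 3 of 3 libraries. Hist2h2aa2 differed by −0.61 (SE 0.17, limma adjusted p = 0.0198) and was lower with kallisto in 3 of 3 libraries. Among the rest, Hist2h2ab (0.44), Hist1h2bg (0.28) and Hist1h2ad (0.18) had the highest differences, and Hist1h4m (−0.43), Hist1h4c (−0.21), Hist1h4k (−0.20) and Hist1h2ap (−0.20) the lowest, none of them past the threshold.

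These calls depended on the scale and the libraries. After the median difference of all genes was subtracted in each library, kallisto was higher for 0 and lower for 17 of the 19 histone genes, and higher for 7026 and lower for 6805 of all genes. On log2(CPM + 1) it was higher for 1 and lower for 4 histone genes, and higher for 10142 and lower for 3546 of all genes. Without replicate 1, Hist2h2be was called higher and Hist1h4m and Hist1h2ap lower, and Hist2h2ac and Hist2h2aa2 were no longer called; without replicate 2, Hist2h2be was the only call. With no filter on low values, 8 of 63 histone genes were higher with kallisto, Hist4h4 (1.17) and Hist1h1d (0.65) among them, and 0 were lower.

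**Figure D4:**
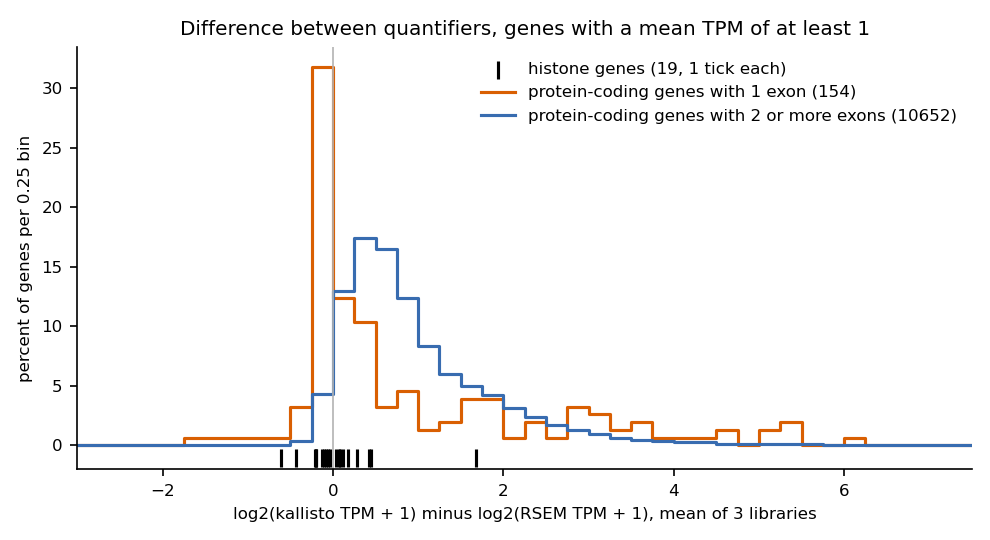
Percent of genes (y axis) by the mean difference of log2(kallisto TPM + 1) minus log2(RSEM TPM + 1) (x axis), with ticks for 19 histone genes and lines for coding genes with 1 exon (154) and with 2 or more exons (10652). The histone genes sit around 0 apart from Hist2h2be at 1.68, and genes with several exons sit to the right of 0.

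Histone genes that are made outside S phase stood higher on chromatin. The median log2(RSEM TPM + 1) was 0.49 ± 0.21 over the 67 genes, 1.60 ± 0.38 over 11 replication-independent histone variants and 0.29 ± 0.07 over all protein-coding genes. With kallisto these medians were 0.67 ± 0.11, 1.54 ± 0.28 and 1.22 ± 0.14, so the 67 genes lay above the median of all protein-coding genes with RSEM and below it with kallisto. With RSEM the difference between the histone lists was −1.12 and negative in 3 of 3 libraries. H2afy, which encodes macroH2A1, had 55.4 TPM ± 8.83, and H3f3b, which encodes H3.3, had 55.0 ± 17.8 (RSEM, SD, n = 3). Cenpa, the H3 variant of centromeres, had 15 ± 5.27. These levels exceeded that of every replication-dependent gene, but 5 of the 11 variants (H2afx, H1f0, H2afv, H2afy2 and H1fx) were not detected in every library, and H1fx had no count.

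Genes that process histone mRNA were mostly present. Of 22 processing genes, 19 were detected with kallisto and 15 with RSEM, and their median was 2.03 ± 0.15 with RSEM. The list includes cap-binding genes, so it is not limited to genes specific to histone mRNA. Among those not detected with RSEM were Lsm11, Casp8ap2, Npat and Zfp473, with mean TPM of 0.73, 0.68, 0.62 and 0.37. With kallisto their means were 3.93, 1.94, 0.95 and 3.23 TPM. Slbp, the gene of the stem-loop binding protein, had 5.65, 6.76 and 6.44 TPM with RSEM, and its libraries lay close together. Npat, whose protein switches on histone gene transcription at S-phase entry, had 0.57, 0.61 and 0.69 TPM. Srrt, which encodes the cap-associated factor ARS2, was highest at 62.8 ± 6.23, and Ncbp1, of the nuclear cap-binding complex, was the lowest of the 15 at 2.53 ± 0.919. The 14 histone chaperone genes had a median of 3.24 ± 0.15, and 13 were detected by both programs, led by Atrx at 117 TPM ± 12.4.

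S-phase and proliferation genes gave a mixed picture. Of 30 such genes, 17 were detected with kallisto and 8 with RSEM, and their median was 0.92 ± 0.30 with RSEM, above the 67 histone genes in 3 of 3 libraries. Mki67, a proliferation marker with a very long exon, had 94.5 TPM ± 13.6, Pcna, the sliding clamp of DNA replication, 27.7 ± 10.2, and Tk1, thymidine kinase, 23.6 ± 8.43. The lowest of the 8 detected with RSEM were Cdk2, a kinase of S-phase entry, at 3.54 ± 0.745, and its cyclin gene Ccne2 at 2.22 ± 0.942.

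**Figure D5:**
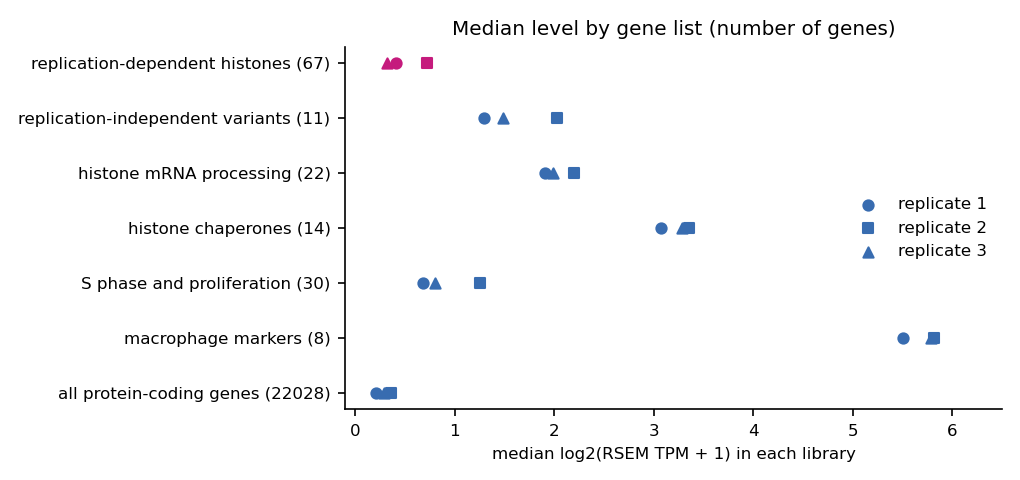
Median log2(RSEM TPM + 1) (x axis) of each gene list (rows, number of genes in brackets) in each of the 3 libraries. The replication-dependent histone genes lie between 0.32 and 0.72, below the other named lists in every library and, with RSEM but not with kallisto, above the median of all coding genes.

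The cells carried macrophage markers: all 8 listed were detected, and their summed RSEM TPM was 459.9 to 699.7 per library. Of 20 markers of other blood, stromal and vessel cells, 7 were detected with kallisto and 1 with RSEM, where they summed to 3.50 to 5.62 TPM, and Ly6g and Hba-a1 had no count by either program. The T cell gene Cd3d had 25 TPM ± 3.99 with kallisto and no count with RSEM. Library differences among histone genes followed those of other genes. Of 26 histone genes with a mean RSEM count of at least 5, 57.7% were highest in replicate 2, the library from the least RNA, and so were 58.7% of 5192 other coding genes with 5 to 100 counts.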

How the data were processed

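Total RNA-seq of the chromatin fraction was analysed in 3 libraries of 1 group. The deposited tables gave, per the file headers, expected counts and TPM per gene and transcript under column names that RSEM writes, and estimated counts and TPM per transcript under names that kallisto writes. The sources used here give neither the authors' aligner, programs and versions nor the strand setting. Per the labels mm10 was the assembly, and annotation M21 is named in notes deposited beside the tables; all gene IDs were found in GENCODE M21, which gave symbols and coordinates. Kallisto values were summed per gene. Rows naming no gene (26345, with 1.40%, 0.352% and 0.355% of RSEM counts) stayed out of count totals. Counts were used without rounding, and no count model was run because there was 1 group.

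Levels are means ± SD over 3 libraries. The programs were compared with limma 3.58.1 in R 4.3.3 (intercept only, paired by library, pseudocount of 1, mean TPM of at least 1, variance trend on level, Benjamini-Hochberg threshold of 0.05). This test measures a difference between programs that read the same libraries. It was also run on simulated differences that were centred on 0 for most genes. The median difference in the real data was 0.96, so that run does not bear on the calls given here. Other values were computed with python 3.11.15, numpy 2.4.6 and pandas 2.3.3. Sequences came from GENCODE M21 transcripts. The members, gene lists and tests were chosen with earlier results of these data known. Values per library are given for the 12 genes with the highest mean RSEM TPM, the highest gene of each class, the largest differences between programs, and genes named for their counts or transcript forms after values were seen. Alternatives were the other program, another scale, pseudocount or filter, and leaving out each library.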

Additional observations from a re-analysis of the deposited data

How the results depend on the processing

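Of 140 alternative values for 20 results, 51 were classed as moved and 89 were not. The 89 include wide shifts. Of all genes, 14120 were called higher with kallisto in the main run, 19148 without a filter and 10142 on log2(CPM + 1). The histone share of counts was 0.00441% with kallisto, 0.00510% of coding counts and 0.00214% with kallisto without the 5 genes of largest excess. Detected genes numbered 17 at a TPM of at least 0.5 and 31 with a TPM of 1 in any library. Of summed histone values, H1 held 18.1% of counts and 9.61% of counts per kilobase, H2B 23.1% with kallisto, and H4 27.0% of counts and 33.8% without Hist1h4m. With a pseudocount of 0.1 the class medians on the log2 scale were −0.55 for H1, −1.54 for H2A, −1.38 for H2B, −1.20 for H3 and 0.52 for H4. Over genes with a mean TPM of at least 1 they were 1.14, 1.76, 1.30, 1.15 and 1.57 in that order, with H2A above H4. On log2(CPM + 1) they were 0.85 for H1, 0.16 for H2A, 0.17 for H2B, 0.25 for H3 and 0.67 for H4, with H1 above H4, and with kallisto 0.64 for H2B.

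The difference of medians from the replication-independent variants was −0.87 with kallisto, −2.13 with a pseudocount of 0.1, −1.84 on log2(CPM + 1) and −2.04 over detected genes. From S-phase genes it was −0.79, −1.0, −1.42 and −1.84, and from processing genes −1.89, −2.72, −2.43 and −0.77, in the same order. Histone genes called higher with kallisto numbered 8 without a filter, 1 on log2(CPM + 1), 0 after centring and 1 to 2 when a library was left out; those called lower numbered 0, 4, 17 and 0 to 2. Of all genes, 7026 were higher after centring, and 3546 on log2(CPM + 1), 6805 after centring and 147 to 364 with a library left out were lower. Genes with most TPM outside the shortest coding transcript numbered 1 with kallisto and 0 with RSEM. The cause of these shifts was not tested. With under 5 counts for most genes, single-gene orders are limited by depth. The programs were compared paired by library, and no replicate block between groups could be fitted in a series of 1 group.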
